A study of Mus musculus with 6 samples.

Results

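The Slc25a genes encode the mitochondrial carrier family, and 46 of them were measured here among 30827 named genes and 65956 probe sets of a whole-transcript microarray. They were the protein-coding genes whose symbol in the array annotation begins with Slc25a and a number, and each was read by 1 probe set. The arrays measured total RNA of inguinal subcutaneous white adipose tissue (WAT) from male C57BL/6 mice aged 2 months. Both groups carried floxed Tfg alleles (TFG f/f), and both received tamoxifen by intraperitoneal injection over 5 days, with tissue taken 2 weeks later. The 3 arrays labelled KO came from mice that also carried Adipoq-ERT2Cre, a tamoxifen-activated Cre recombinase driven by the promoter of the adipocyte gene Adipoq, so that other cell types of the depot were not targeted. The 3 arrays labelled WT came from mice without Cre, and the labels call the arrays of each group biological replicates.

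Mitochondrial carriers are small membrane proteins that exchange metabolites between the cytosol and the mitochondrial matrix. Most sit in the inner membrane, each with its own set of substrates, such as ADP and ATP, phosphate, citrate, acylcarnitines, amino acids, cofactors or iron. In the fat cell they link the mitochondrion to lipid metabolism, since citrate leaves through a carrier to supply cytosolic acetyl-CoA, while acylcarnitine enters through another to be oxidised. Not every member is a carrier of the inner membrane: Slc25a17 is a peroxisomal protein and Slc25a46 lies in the outer mitochondrial membrane.

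The promoters of the carriers whose transcripts rose are shown first, so that their sequences can be read beside their levels. Of the 46 genes, 36 had promoter windows in the RefSeq table of GRCm38.p6, each running from 250 bases before to 50 bases after a start site. Motifs were searched on both strands. The 5 windows below belong to Slc25a1, the carrier with the largest rise, and to the 4 risen carriers with a match to the core of an ETS factor site, CCGGAAG. Capitals mark that core and, in Slc25a1, an E-box, CACGTG.
Slc25a1, GRCm38.p6, chr16:17928170-17928469, minus strand: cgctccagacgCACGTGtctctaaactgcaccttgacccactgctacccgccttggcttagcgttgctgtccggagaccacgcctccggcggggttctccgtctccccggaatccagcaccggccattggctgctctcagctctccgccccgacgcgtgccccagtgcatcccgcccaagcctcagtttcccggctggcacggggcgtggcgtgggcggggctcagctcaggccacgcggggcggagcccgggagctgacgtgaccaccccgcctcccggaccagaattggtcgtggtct
Slc25a20, GRCm38.p6, chr9:108661886-108662185, plus strand: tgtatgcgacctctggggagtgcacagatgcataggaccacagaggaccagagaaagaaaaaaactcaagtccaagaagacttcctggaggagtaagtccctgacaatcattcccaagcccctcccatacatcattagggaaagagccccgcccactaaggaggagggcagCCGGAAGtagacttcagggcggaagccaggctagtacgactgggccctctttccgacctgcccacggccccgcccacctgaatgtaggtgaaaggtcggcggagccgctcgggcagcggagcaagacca
Slc25a17, GRCm38.p6, chr15:81360716-81361015, minus strand: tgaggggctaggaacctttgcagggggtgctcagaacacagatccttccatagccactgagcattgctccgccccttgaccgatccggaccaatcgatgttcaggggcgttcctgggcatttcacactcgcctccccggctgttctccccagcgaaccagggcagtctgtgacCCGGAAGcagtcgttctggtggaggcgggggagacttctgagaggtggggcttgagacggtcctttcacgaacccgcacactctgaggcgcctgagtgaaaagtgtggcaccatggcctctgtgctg
Slc25a4, GRCm38.p6, chr8:46211013-46211312, minus strand: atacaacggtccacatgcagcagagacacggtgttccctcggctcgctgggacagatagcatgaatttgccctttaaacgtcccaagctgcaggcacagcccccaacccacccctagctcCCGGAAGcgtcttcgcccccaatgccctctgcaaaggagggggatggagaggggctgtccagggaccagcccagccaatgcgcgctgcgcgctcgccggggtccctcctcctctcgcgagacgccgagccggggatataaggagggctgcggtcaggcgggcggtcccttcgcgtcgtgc
Slc25a3, GRCm38.p6, chr10:91123918-91124217, minus strand: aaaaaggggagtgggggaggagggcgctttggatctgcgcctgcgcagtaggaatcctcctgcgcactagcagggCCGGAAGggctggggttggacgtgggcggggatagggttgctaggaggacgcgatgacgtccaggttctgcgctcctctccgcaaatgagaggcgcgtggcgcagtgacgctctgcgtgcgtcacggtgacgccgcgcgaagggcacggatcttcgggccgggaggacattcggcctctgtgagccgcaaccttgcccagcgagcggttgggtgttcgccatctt
The ETS core began at position -79 relative to the start site in Slc25a20, at -77 in Slc25a17, at -130 in Slc25a4 and at -175 in Slc25a3. It was found in 4 of the 7 risen carriers with a window, in 3 of the 29 others, and in 12.9% of 17492 protein-coding genes. The E-box was found in 1 of the 7 risen and 6 of the 29 other carriers, against 8.91% of genes. Neither the element bound by estrogen-related receptors (TNAAGGTCA, in 1.19% of genes) nor the consensus NRF1 site (in 1.47%) occurred in any of the 36. An SREBP site (TCACNCCAC, in 1.41% of genes) occurred only in Slc25a18. The GC box GGGCGG was present in all 7 risen carriers and in 23 of the 29 others (49.2% of genes), and the CCAAT box in 4 and 15 (42.3% of genes). These are matches of letters, not measured binding, and the shares were not tested.

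All values below are the deposited log2 signals, and a difference is the mean of the KO-labelled minus the mean of the WT-labelled arrays. The median signal was 6.96 to 7.02 over the WT-labelled and 6.47 to 6.76 over the KO-labelled arrays. The median difference of all probe sets was -0.37, which became -0.04 after centring each array on its median and -1.23 after centring on housekeeping genes. Tfg itself read 7.97, 7.94 and 7.91 for WT and 7.99, 8.21 and 8.03 for KO, a difference of 0.14 (limma, adjusted p = 0.345, exact 2-sided permutation p = 0.1, the smallest that 3 against 3 arrays allow). Against the housekeeping genes its difference was -0.72 (limma, adjusted p = 0.0228). On that scale 86.3% of all probe sets were called lower, and the median of all probe sets, -1.23, was below the Tfg value. Whether its probes lie in the floxed exons is not known, and the deposited values do not show the deletion, so groups are named by label here. KO 2 stood apart, with a correlation of 0.96 and 0.965 to the other KO-labelled arrays, which correlated at 0.986 with each other. Adipocyte markers marked the tissue on every array, and 12 of 16 rose, as did 10.7% of protein-coding genes. Their mean signal was 8.77 to 10.55 for WT and 12.33 to 13.67 for KO. Adipoq read 8.76 to 10.97 and 12.57 to 13.01. In bulk tissue, a change in the number of cells of a type and a change in RNA per cell cannot be told apart.

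Of the 46 carriers, 9 rose on the KO-labelled arrays and none fell (limma, adjusted p under 0.05). They were Slc25a1, Slc25a20, Slc25a17, Slc25a5, Slc25a4, Slc25a3, Slc25a51, Slc25a46 and Slc25a11, which carry citrate, acylcarnitines, peroxisomal cofactors, adenine nucleotides, phosphate, NAD and oxoglutarate, apart from Slc25a46, which acts in mitochondrial dynamics. Their share, 19.6%, stood beside 10.7% of 19242 protein-coding genes and 5.32% of all probe sets called higher. For calls in the other direction the shares were 10.1% and 15.6%, and no carrier was among them, although 7 carriers read lower at an unadjusted p under 0.05, as did 38.8% of all probe sets. At that cut 14 carriers read higher, as did 9.12% of probe sets. The median difference was 1.69 over the 9 and -0.07 over the other 37 carriers. It was 0.07 over all 46, beside -0.18 over protein-coding genes. In 19 carriers every KO value exceeded every WT value, as in 23.4% of protein-coding genes and 11.1% of all probe sets. In 13 carriers every KO value was lower than every WT value (41.0% and 44.9%), and in 14 the groups overlapped.

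**Figure D1:**
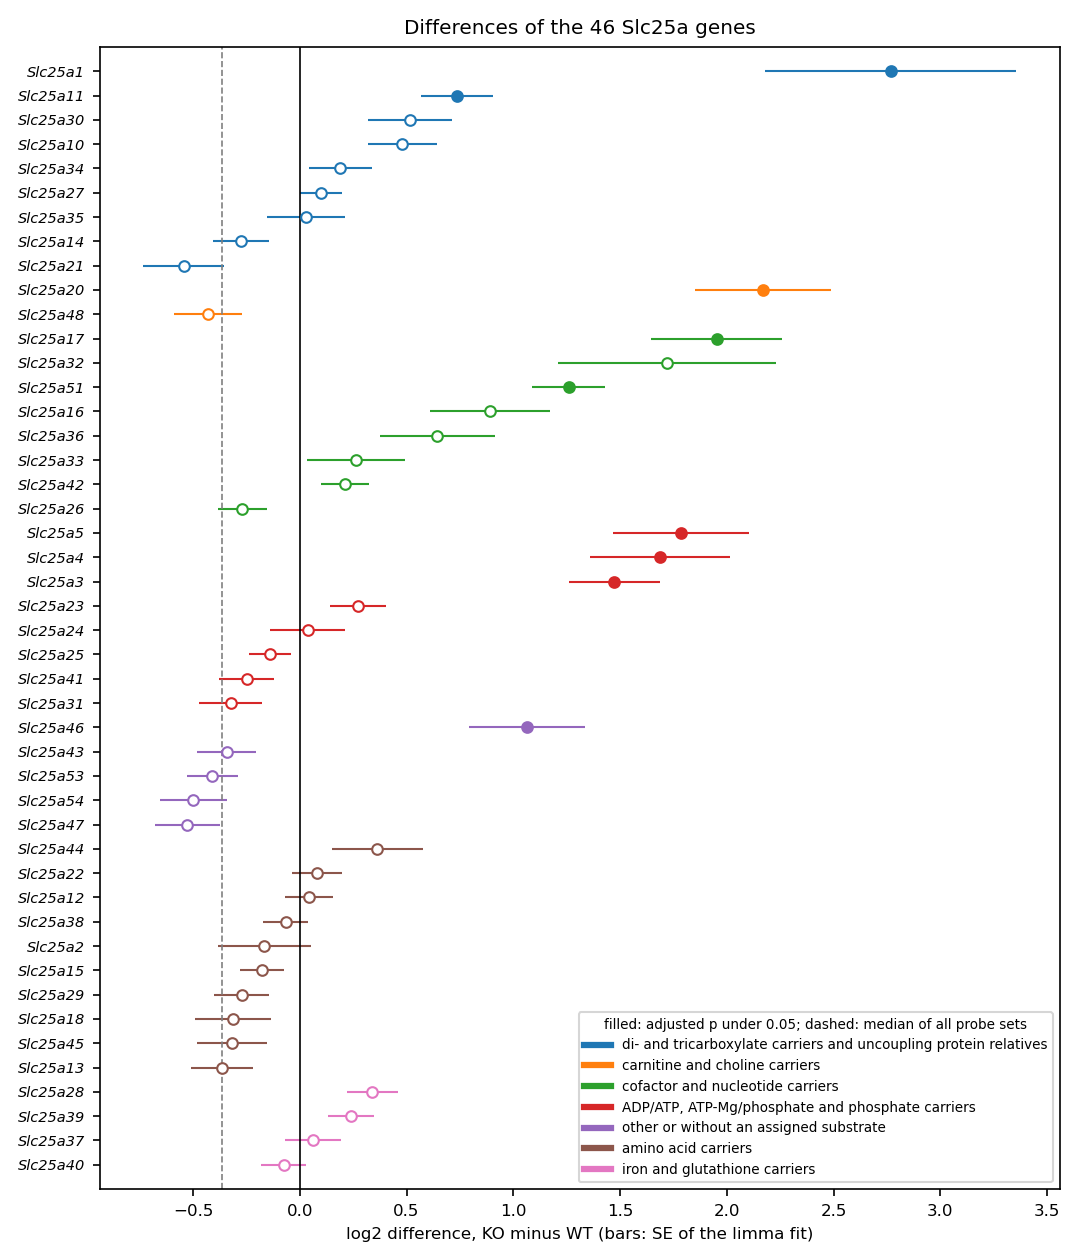
Log2 differences (horizontal axis, KO-labelled minus WT-labelled, bars are SE of the limma fit, n = 3 arrays per group) of the 46 Slc25a genes, grouped by what they carry. The 9 filled points lie between 0.74 and 2.77, while open points did not pass. After centring on housekeeping genes Slc25a11 among the filled points turns to -0.12.

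These calls depended on the scale and on single arrays. Centring each array on its median gave 11 higher and 0 lower, with all 9 among them, where 7.8% of probe sets were called higher and 4.94% lower. Centring on the housekeeping genes, whose mean was 0.86 higher on the KO-labelled arrays, gave 7 higher and 29 lower (1.86% and 86.3% of probe sets). There Slc25a11 turned to -0.12, and Slc25a51 (0.40, adjusted p = 0.175) and Slc25a46 (0.20, adjusted p = 0.503) did not pass, while Slc25a32 did (0.86, adjusted p = 0.0453). As deposited, the adjusted p of the 9 lay between 0.0354 and 0.045. Leaving out WT 1, WT 2, WT 3 or KO 3 left 0 carriers and 0 probe sets called in limma, with 10, 11, 13 and 14 carriers higher at an unadjusted p under 0.05, beside 7.22%, 7.49%, 7.1% and 8.66% of probe sets. Without KO 1, 10 were called higher and 1 lower (5.26% and 16.2% of probe sets). Without KO 2, 8 of the 9 were called (4.62% of probe sets called higher and 10.5% lower), and Slc25a46 was not (0.82, adjusted p = 0.0646).

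**Figure D2:**
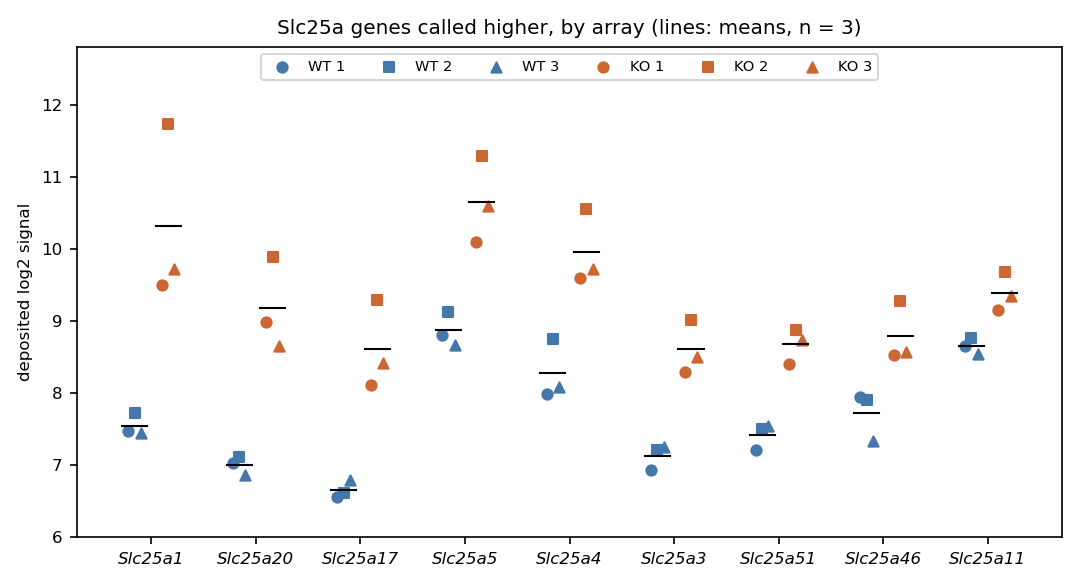
Deposited log2 signal (vertical axis) of the 9 Slc25a genes that rose, with 1 point per array (circle, square and triangle for replicates 1, 2 and 3) and lines at the group means. In each gene the 3 KO-labelled points lie above the 3 WT-labelled points, and KO 2 is the highest. Against housekeeping genes Slc25a11 turns to -0.12.

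Carriers of carboxylates include the exporter of citrate. Slc25a1, which exchanges matrix citrate for malate and so feeds fatty acid and sterol synthesis, read 7.47, 7.73 and 7.45 on the WT-labelled arrays and 9.50, 11.73 and 9.72 on the KO-labelled arrays. KO 2 was far above KO 1 and KO 3, and all 3 lay above every WT-labelled value. The rise was 2.77 ± 0.59 (SE), or 6.81-fold (adjusted p = 0.0379), and 2.06 without KO 2. Slc25a11, the oxoglutarate-malate exchanger of the malate-aspartate shuttle, read 8.66, 8.77 and 8.54 against 9.15, 9.68 and 9.35. The groups were separate, and the rise was 0.74 ± 0.17 (SE, adjusted p = 0.0398), or 0.59 without KO 2. With a trended prior in eBayes its adjusted p was 0.0508. Slc25a10, which exchanges dicarboxylates for phosphate, read 7.35, 7.39 and 7.48 against 7.88, 8.16 and 7.62 without passing (difference 0.48 ± 0.16, adjusted p = 0.0709). Its groups did not overlap either.

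The remaining carriers of this class are relatives of the uncoupling proteins and a carrier of oxodicarboxylates. Slc25a30, Slc25a27 and Slc25a14, relatives of the uncoupling proteins, stood at 0.52 (0.32 without KO 2), 0.10 and -0.28, and Slc25a34 and Slc25a35, without a settled substrate, at 0.19 and 0.03. The oxodicarboxylate carrier Slc25a21, which takes part in lysine and tryptophan breakdown, had the lowest difference of all 46 at -0.54 ± 0.19 (adjusted p = 0.0756). None of these 6 passed. Over all 9 carriers of the class 2 rose and 0 fell, beside 10.7% and 10.1% of protein-coding genes. The median difference was 0.19.

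Carriers of adenine nucleotides and phosphate supply ATP synthase with its substrates and release its product. Slc25a5, which encodes the widely expressed ADP/ATP carrier, read 8.81, 9.13 and 8.67 on the WT-labelled arrays and 10.09, 11.29 and 10.59 on the KO-labelled arrays. Slc25a4, the ADP/ATP carrier that predominates in muscle and heart, read 7.99, 8.75 and 8.08 against 9.60, 10.56 and 9.72. In neither did the groups overlap. The rises were 1.79 ± 0.32 (SE, 3.45-fold, adjusted p = 0.0354) in Slc25a5 and 1.69 ± 0.33 (SE, 3.22-fold, adjusted p = 0.036) in Slc25a4, and 1.47 and 1.39 without KO 2. Slc25a3, the phosphate carrier, read 6.94, 7.21 and 7.25 against 8.30, 9.02 and 8.50. It rose by 1.47 ± 0.21 (SE), or 2.78-fold (adjusted p = 0.0354), with every KO-labelled array above every WT-labelled one.

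The other 5 genes of this class did not pass. Slc25a31, an ADP/ATP carrier known from testis, stood at -0.32. Among the ATP-Mg/phosphate carriers, which adjust the adenine nucleotide pool of the matrix, Slc25a23, Slc25a24 and Slc25a41 stood at 0.27, 0.037 and -0.25. Slc25a25, a calcium-regulated member of that subgroup, read 6.19, 6.15 and 6.18 against 6.03, 6.04 and 6.03, a difference of -0.14 ± 0.10 (SE, adjusted p = 0.274). Its SD within groups, 0.021 and 0.0058, was the smallest of the 46 when both are summed, and the groups did not overlap although the test was not passed. After centring on the array medians Slc25a25, Slc25a31 and Slc25a41 stood at 0.19, 0.0067 and 0.08. Over the 8 genes 3 rose and 0 fell, beside 10.7% and 10.1% of protein-coding genes, and the median difference was 0.16.

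Slc25a20 encodes the carnitine-acylcarnitine carrier, which brings activated fatty acids into the matrix for oxidation. It read 7.03, 7.12 and 6.87 on the WT-labelled arrays and 8.98, 9.89 and 8.66 on the KO-labelled arrays. The lowest KO-labelled value was above the highest WT-labelled value, and the rise of 2.17 ± 0.32 (SE), or 4.50-fold, remained 1.81 without KO 2 (adjusted p = 0.0354 and 0.0163). The choline carrier Slc25a48 stood at -0.43 ± 0.16 without passing (adjusted p = 0.0844). Its KO-labelled values, 5.91 to 6.32, lay all below the WT-labelled values, 6.45 to 6.73.

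Cofactor and nucleotide carriers held 2 of the rises. Slc25a17, the peroxisomal carrier of coenzyme A and other nucleotide cofactors, read 6.56, 6.61 and 6.79 on the WT-labelled arrays and 8.11, 9.29 and 8.42 on the KO-labelled arrays. It rose by 1.95 ± 0.31 (SE), or 3.87-fold (adjusted p = 0.0354), and by 1.61 without KO 2. Slc25a51, which imports NAD into the matrix, read 7.21, 7.50 and 7.54 against 8.41, 8.88 and 8.74. Its rise was 1.26 ± 0.17 (SE), or 2.40-fold (adjusted p = 0.0354), and KO 2 was close to KO 3 here. The folate and FAD carrier Slc25a32 read 6.60, 6.98 and 6.81 against 7.43, 9.53 and 8.59, so its KO-labelled arrays were far apart, though all were above the WT-labelled ones. With a difference of 1.72 ± 0.51 (SE) it missed the threshold (adjusted p = 0.0554), and it passed after median centring (adjusted p = 0.0489) and against housekeeping genes (adjusted p = 0.0453).

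The other 5 cofactor and nucleotide carriers did not pass. Slc25a16, linked to the coenzyme A supply of mitochondria, stood at 0.89 (adjusted p = 0.0625), and the coenzyme A carrier Slc25a42 at 0.21. The pyrimidine nucleotide carriers Slc25a36 and Slc25a33, which serve mitochondrial DNA and RNA synthesis, stood at 0.64 and 0.26, and at 0.35 and 0.028 without KO 2. Slc25a26, which imports S-adenosylmethionine for methylation in the matrix, stood at -0.27, and at 0.06 after median centring. The median of the 8 measured carriers was 0.77, with 2 that rose and 0 that fell, beside 10.7% and 10.1% of protein-coding genes.

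Amino acid carriers held no call in 10 genes, where 10.7% of protein-coding genes were called higher and 10.1% lower. Their median difference was -0.17, beside -0.18 over protein-coding genes. Slc25a12, an aspartate-glutamate exchanger of the malate-aspartate shuttle, read 6.53, 6.51 and 6.71 on the WT-labelled and 6.65, 6.58 and 6.65 on the KO-labelled arrays, with overlap (difference 0.043, adjusted p = 0.763). Slc25a13, the second such exchanger, read 6.70, 6.47 and 6.69 against 6.42, 6.05 and 6.30 without overlap (difference -0.36, adjusted p = 0.0981). Slc25a44, a carrier of branched-chain amino acids that is active in brown fat, read 6.39, 6.15 and 6.32 against 6.35, 7.08 and 6.52. Only KO 2 and KO 3 were above all WT-labelled values there, and the difference of 0.36 ± 0.21 (SE) did not pass (adjusted p = 0.204) and was 0.15 without KO 2. The glutamate carriers Slc25a22 and Slc25a18 stood at 0.08 and -0.31, and the ornithine carriers Slc25a15 and Slc25a2 at -0.18 and -0.17. Slc25a38, which brings in glycine for heme synthesis, stood at -0.067, the basic amino acid carrier Slc25a29 at -0.27 and Slc25a45 at -0.32. After centring on the array medians 9 of the 10 were above 0 and none passed. So were 12476 of 19242 protein-coding genes above 0, and the medians were 0.16 over the 10 and 0.15 over protein-coding genes.

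Iron and glutathione carriers held no call in 4 genes, where 10.7% of protein-coding genes were called higher and 10.1% lower. Slc25a28, a mitoferrin that imports iron for heme and iron-sulfur clusters, read 6.60, 6.73 and 6.81 on the WT-labelled and 6.93, 7.13 and 7.10 on the KO-labelled arrays. Its groups did not overlap, the difference of 0.34 ± 0.12 (SE) did not pass (adjusted p = 0.0771), and after median centring it passed at 0.67 (adjusted p = 0.0425). The other mitoferrin, Slc25a37, known from developing red cells, read 7.22, 6.94 and 7.24 against 7.29, 7.11 and 7.18, with overlap (difference 0.06, adjusted p = 0.722). The glutathione carriers Slc25a39 and Slc25a40 stood at 0.24 and -0.077 (adjusted p = 0.122 and 0.559).

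Among carriers with another role or no assigned substrate, Slc25a46, an outer membrane protein of mitochondrial dynamics, read 7.95, 7.90 and 7.34 on the WT-labelled arrays and 8.53, 9.28 and 8.57 on the KO-labelled arrays. Its groups were separate and it rose by 1.06 ± 0.27 (SE), or 2.09-fold (adjusted p = 0.045). It had the highest adjusted p of the 9, and after quantile normalization it did not pass (1.26, adjusted p = 0.0527). Slc25a47, known as a carrier of hepatocytes, Slc25a54, Slc25a53 and Slc25a43 stood at -0.53, -0.50, -0.41 and -0.34 without passing (adjusted p = 0.0534 to 0.102). In them every KO value was below every WT value, as in 41.0% of protein-coding genes and 44.9% of all probe sets. After median centring these 4 differences were -0.20, -0.17, -0.08 and -0.013.

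The closest relatives in the family could be compared within each array, where a shift equal for all genes of that array cancels. A shift that differs with the signal level would not cancel, and its part in these gaps was not tested. The gap between Slc25a5 and Slc25a4 was 0.60 ± 0.22 (SD, n = 3) for WT and 0.70 ± 0.19 for KO, a change of 0.10 that was smaller than the spread (exact permutation p = 0.6). The gap between Slc25a12 and Slc25a13 went from -0.037 ± 0.12 to 0.37 ± 0.15, that between Slc25a39 and Slc25a40 from 0.84 ± 0.11 to 1.15 ± 0.13, and that between Slc25a36 and Slc25a33 from 1.46 ± 0.12 to 1.84 ± 0.18. In these 3 pairs the groups did not overlap (exact permutation p = 0.1, adjusted p = 0.233 over 7 pairs), and 3 against 3 arrays cannot go below 0.1. In the other pairs, Slc25a22 and Slc25a18, Slc25a28 and Slc25a37, and Slc25a15 and Slc25a2, the gap changed by 0.39, 0.28 and -0.01 with overlap. The 7 pairs were chosen after the values were seen.

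The 9 risen carriers and the 37 others were also averaged within each array, as a description, since the call itself made the split. The mean signal of the 9 was 7.61 to 7.86 for WT and 8.96, 9.96 and 9.14 on KO 1, KO 2 and KO 3, with KO 2 the highest in 9 of 9. The mean of the other 37 was 6.77, 6.77 and 6.80 against 6.79, 6.82 and 6.78. Other marker lists moved beside the risen carriers, while 10.7% of protein-coding genes were called higher and 10.1% lower as deposited. Adipocyte markers had a median difference of 2.96, with 12 of 16 higher, where the median of the 9 risen carriers was 1.69. Housekeeping genes had a median difference of 1.01, with 6 of 12 higher, endothelial markers 1.61, with 9 of 10 higher, and macrophage markers 0.10, with 2 of 10 higher and 1 lower as deposited, and 4 higher and 0 lower after median centring. All 9 measured lymphocyte markers read lower as deposited, with a median of -0.53 (-0.20 after median centring), and 4 fell, none of which passed after that centring. The part of these lists in the result was not tested.

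Skeletal muscle, which is rich in Slc25a4, lies near the inguinal depot, and the mean of its markers was high on some arrays. Of 22 muscle markers 0 were called, and their mean was 7.08 to 7.11 on WT-labelled arrays, 8.17 on KO 1, 9.31 on KO 2 and 6.92 on KO 3. The difference was above 0 in 17 of them and below 0 in 5. Every KO value was above every WT value in 1 (23.4% of protein-coding genes) and below in 3 (41.0%), Myl2, Myh7 and Tnni1. The lowest value of the whole table was 2.81 and the median of the probe set means 6.83. No detection calls were used, so whether the WT-labelled arrays held muscle RNA is not known. Slc25a4 read 9.72 on KO 3, between KO 1 and KO 2. The part of muscle RNA in the carriers' values was not tested. Brown and beige fat markers had a median difference of 0.66, with 3 of 13 called higher and 0 lower, beside 10.7% and 10.1% of protein-coding genes. Their mean was 6.91 to 7.07 for WT against 7.40 to 8.02 for KO. The 3 called were Cox8b, Cpt1b and Cox7a1. The difference was above 0 in 8 of the 13 and below 0 in 5. Every KO value was above every WT value in 7 (23.4% of protein-coding genes) and below in 4 (41.0%).

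**Figure D3:**
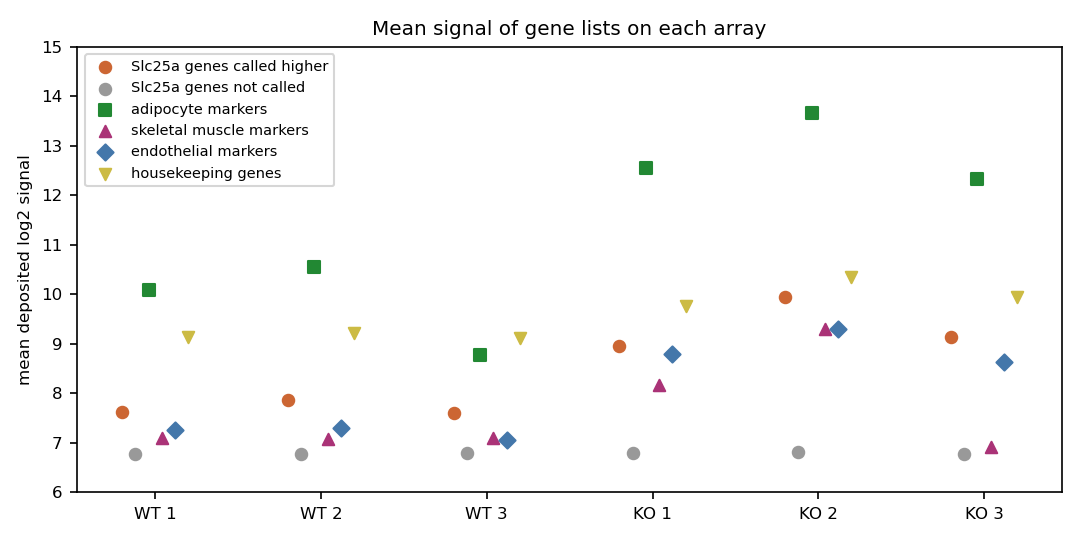
Mean deposited log2 signal (vertical axis) of gene lists on each of the 6 arrays. The 9 risen carriers lie at 7.61 to 7.86 for WT and 8.96 to 9.96 for KO, and the 37 others between 6.77 and 6.82 on every array. The mean of the 22 muscle markers is raised on KO 1 and KO 2 but not on KO 3, and 5 of the 22 have a difference below 0.

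Relatives of the family that bear other symbols were read beside the carriers. Mtch1 and Mtch2, carrier-like proteins of the outer membrane, rose by 1.16 ± 0.16 and 1.55 ± 0.24 (SE, adjusted p = 0.0354 in both). Mtch1 read 8.60, 8.54 and 8.28 against 9.38, 9.82 and 9.70. Mtch2 read 7.64, 7.85 and 7.41 on the WT-labelled and 8.88, 9.66 and 9.01 on the KO-labelled arrays, with no overlap. The uncoupling proteins Ucp1, which makes heat in brown fat, and Ucp3, of muscle and brown fat, were each 0.95 higher without passing (adjusted p = 0.06 and 0.079). Without KO 2 they were at 0.62 and 0.56, where Ucp1 passed (adjusted p = 0.0431) and Ucp3 did not (adjusted p = 0.057). Ucp1 read 5.40, 5.65 and 5.34 against 6.05, 7.07 and 6.12. Ucp2 was not analysed here.

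Carrier precursors enter mitochondria through the outer membrane translocase and are placed in the inner membrane by the complex around Timm22. Of 13 measured genes of this import path 3 rose and 0 fell, beside 10.7% and 10.1% of protein-coding genes, with a median difference of 0.58. After median centring 6 rose, as did 2939 of 19242 protein-coding genes. The receptor genes Tomm20 and Tomm70a rose by 1.37 and 0.96, and Timm8b, an intermembrane-space chaperone, by 0.91 (adjusted p = 0.0357, 0.0434 and 0.0354). The chaperone Timm13 stood at 1.26 without passing (adjusted p = 0.0545), and at 0.84 without KO 2, where it passed (adjusted p = 0.0293). Timm22 itself, the insertase for carriers, read 6.47, 6.84 and 6.93 against 6.78, 7.06 and 7.17 with overlap (difference 0.26, adjusted p = 0.27).

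Among 19 other mitochondrial membrane transporters 6 rose and 0 fell, beside 10.7% and 10.1% of protein-coding genes, with a median difference of 0.19. The outer membrane pores Vdac3, Vdac2 and Vdac1 rose by 2.98, 1.56 and 1.16. Sfxn1, the serine carrier of the inner membrane, rose by 3.12 ± 0.58 (SE), from 7.99, 8.48 and 7.60 to 10.39, 12.47 and 10.58, and by 2.46 without KO 2. Micu2, a regulator of calcium uptake, rose by 1.10. Mpc1, a subunit of the pyruvate carrier, read 7.50, 8.05 and 7.82 against 8.64, 9.29 and 8.44 and rose (adjusted p = 0.0471), but did not pass without KO 2 (adjusted p = 0.0612). The pore-forming calcium uniporter Mcu was at -0.087 without passing.

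Enzymes that work on the carriers' substrates held 13 that rose and 1 that fell among 24 measured, with a median difference of 0.81. For this list and the next, the shares over protein-coding genes were 10.7% higher and 10.1% lower. Cpt2 and Crat, which act on acylcarnitines beside Slc25a20, rose by 2.12 ± 0.38 and 1.44 ± 0.25 (SE), and Cpt1b by 0.79, which without KO 2 was 0.58 and did not pass (adjusted p = 0.0509). Mdh2, the matrix malate dehydrogenase that serves Slc25a11 and Slc25a1, rose by 1.95 and Gpd1, of the glycerol phosphate shuttle, by 3.67. Acly, which splits the citrate exported by Slc25a1, read 7.69, 7.77 and 7.56 against 8.57, 10.56 and 8.45. Its groups did not overlap, yet with KO 2 far above the other arrays the difference of 1.52 ± 0.57 (SE) did not pass (adjusted p = 0.0855). Without KO 2 it was 0.84 and passed (adjusted p = 0.0225). The enzyme that fell was Ckmt1, a mitochondrial creatine kinase (-0.43, adjusted p = 0.0457), named after its value was seen. It stood at -0.10 after median centring and at -0.40 without KO 2, without passing either time. Of 29 genes of ATP synthase and the respiratory chain, 23 rose and 0 fell, with a median of 1.57. The smallest p in that list belonged to the cytochrome c oxidase subunit genes Cox4i1, Cox7c and Cox6c and to Atp5l of ATP synthase. Atp5l has 3 probe sets, and Cycs and Cox5b, also among the 23, have 2 each. Only the 1 with the highest mean was read here. Whether it reads the gene itself or a copy elsewhere in the genome was not tested.

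**Figure D4:**
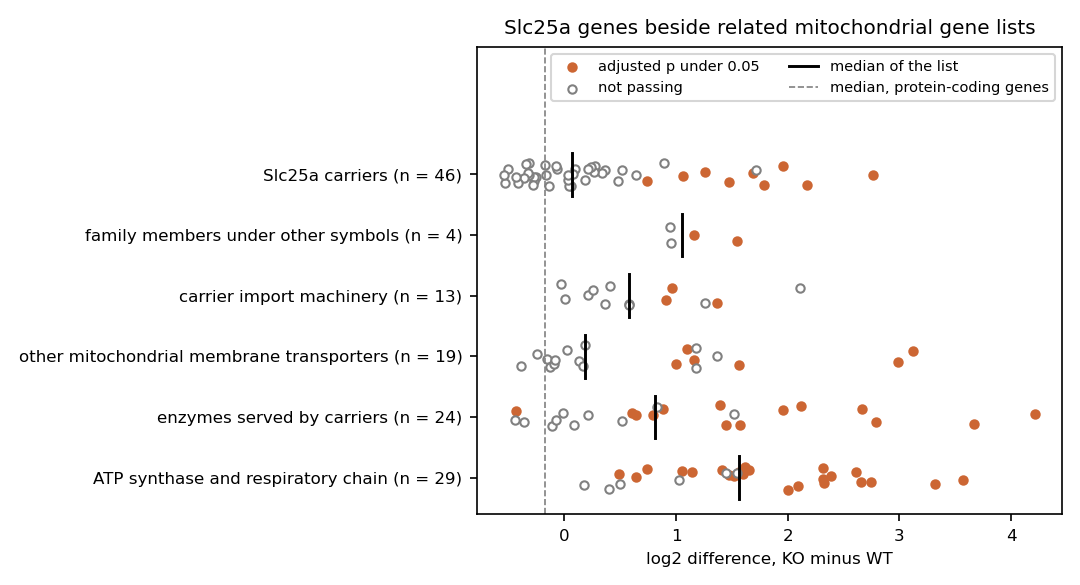
Log2 differences (horizontal axis, KO-labelled minus WT-labelled) of single genes in 6 lists, with list medians as black lines and the median of protein-coding genes (-0.18) dashed. The Slc25a median is 0.07, that of ATP synthase and the respiratory chain 1.57. Against housekeeping genes these medians are -0.79 and 0.71.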

How the data were processed

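Log2 signals per probe set were deposited as 1 table for 6 arrays. Per the labels, RNA was biotinylated with a GeneChip WT pico kit, and Transcriptome Analysis Console was used per the submitters' processing notes. The sources used here do not give the background correction, the normalization or the genome build, and no detection calls were used, so fold changes of weak signals are uncertain. Array annotation, updated through RefSeq (GRCm38.p6) by gene ID, gave 31388 probe sets 1 gene, 1362 several and 33206 none. A gene was represented by its probe set with the highest mean. For list genes with several probe sets, whether that one reads the gene or a copy of it was not tested. limma 3.58.1 in R 4.3.3 (lmFit, eBayes without trend) was fitted to all 65956 probe sets with Benjamini-Hochberg adjustment, and calls needed an adjusted p under 0.05. The procedure was run on simulated arrays with known changes and independent noise. Those had no shift between arrays and no outlying array, so they give no check on either. Every measured Slc25a gene could be named, values on every array being given for called and preset members. From each related list up to 4 genes with the smallest p and preset genes were named. The members and lists were chosen with earlier results of these data known. Of 200 list genes 181 were measured (some stand in several lists). Promoter windows on chromosome 18 were not used. No filter on low values was applied. Permutation tests used scipy 1.17.1. The number of arrays limits the precision. Alternatives changed scaling, filters, priors, weights, the probe sets tested, the replicate block and the arrays included.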

Additional observations from a re-analysis of the deposited data

How the results depend on the processing

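Each array was left out in turn. The number of carriers called higher ranged from 0 to 10 and called lower from 0 to 1, against 9 and 0. At an adjusted p under 0.1 the numbers were 14 and 6, with 8.95% and 37.6% of probe sets called. Carriers called lower numbered 1 without probe sets under the median level (6.83), 2 without those under the lower quartile (6.21), and 3 with array weights, with probe sets of 1 gene symbol, or with probe sets averaged per gene, where 24.5%, 21.1%, 26.4%, 21.7% and 21.9% of the features tested were called lower. The number was 29 after centring on housekeeping genes, where 86.3% were. The median difference of the carriers, 0.07, became 0.39 after quantile normalization, 0.40 after median centring, -0.79 after centring on housekeeping genes, 0.48 without probe sets under the median level and 0.15 without those under the lower quartile, where 27 and 40 carriers were left. The labels do not say that replicate numbers pair the samples. Deviations correlated at 0.00153, 0.205 and 0.139, and 3 of 6 arrays matched their own number best. With the number as a replicate block 10 carriers were called higher (4.49% of probe sets), Slc25a32 being added. In the related lists, centring on housekeeping genes left 1 relative under another symbol, 1 import gene, 3 transporters and 7 enzymes called higher. Called lower there were 0, 3, 10 and 8. Median centring gave 6 import genes called higher, where 7.8% of probe sets were. Tfg turned to -0.72 against housekeeping genes.

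Signs of small differences turned with the scale, and the cause was not tested beyond the shift each centring makes. Against housekeeping genes the values were -0.12 for Slc25a11, -0.22 for Slc25a36, -0.34 for Slc25a30, -0.38 for Slc25a10, -0.50 for Slc25a44, -0.52 for Slc25a28, -0.59 for Slc25a23, -0.60 for Slc25a33, -0.62 for Slc25a39, -0.65 for Slc25a42, -0.67 for Slc25a34, -0.76 for Slc25a27, -0.78 for Slc25a22, -0.80 for Slc25a37, -0.82 for Slc25a12 and Slc25a24, and -0.83 for Slc25a35. After quantile normalization and after median centring they were 0.24 and 0.26 for Slc25a38, 0.27 and 0.25 for Slc25a40, 0.23 and 0.19 for Slc25a25, 0.20 and 0.16 for Slc25a2, 0.15 and 0.15 for Slc25a15, 0.12 and 0.08 for Slc25a41, 0.036 and 0.06 for Slc25a26, 0.09 and 0.057 for Slc25a29, 0.093 and 0.053 for Slc25a14, 0.051 and 0.017 for Slc25a18 and 0.024 and 0.013 for Slc25a45. Slc25a43 was 0.024 after the former and Slc25a31 0.0067 after the latter. Slc25a35 was -0.16 with array weights. With each array left out in turn, Slc25a35 ranged from -0.105 to 0.175, Slc25a37 from -0.037 to 0.11 and Slc25a24 from -0.068 to 0.17.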
